A study of Rattus norvegicus with 119 samples.

Results

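Corticosteroid receptors and genes that glucocorticoids induce were measured in the rat hippocampus, 1 array per animal, after developmental exposure to lead. The set comprised 9 genes: the receptor genes Nr3c1 and Nr3c2, the induced genes Fkbp5, Tsc22d3, Sgk1, Ddit4 and Pdk4, the hormone-activating enzyme gene Hsd11b1, and Crhr1, the receptor of corticotropin-releasing hormone. A gene was represented by every probe set that carried its symbol and no other. This gave 1 probe set for each of 8 genes, out of 14506 genes on the array with such a probe set. Crhr1 had none, so no value is given for it.

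The animals were 39 Sprague Dawley, 40 Long Evans and 40 Fischer rats of both sexes. Each strain and sex had 2 groups with perinatal and 2 with postnatal exposure to lead acetate in the chow, at 750 and at 250 ppm, and 1 control group without lead (0 ppm). Perinatal animals were exposed through their dams, which ate lead chow from 10 days before breeding until weaning. Postnatal animals were exposed from birth to postnatal day 45. Tissue was taken from every animal on postnatal day 55, after a spell on control chow, so exposure had ended before the measurement. Of the 30 groups, 29 held 4 animals and the male Sprague Dawley control group held 3. Litters were not given, so the p-values measure the spread between these animals.

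Circulating glucocorticoids enter hippocampal cells and bind Nr3c1, the glucocorticoid receptor, and Nr3c2, the mineralocorticoid receptor. The mineralocorticoid receptor has the higher affinity for corticosterone and is abundant in hippocampal neurons. The glucocorticoid receptor is occupied mainly during stress and at the daily hormone peak. Without hormone the glucocorticoid receptor waits in the cytoplasm in a complex with Hsp90 and other chaperones. With hormone it moves to the nucleus and binds DNA, and genes such as Fkbp5, Sgk1 and Tsc22d3 are transcribed. Fkbp5 encodes a co-chaperone that lowers the receptor's affinity for hormone, and Tsc22d3 encodes GILZ, a leucine zipper protein that restrains inflammatory transcription factors. Sgk1 encodes a kinase that acts on ion channels and transporters. Ddit4 encodes REDD1, an inhibitor of mTORC1 signalling, and Pdk4 encodes a kinase that shuts off the pyruvate dehydrogenase complex. Hsd11b1 encodes the enzyme that makes active glucocorticoid from its inert 11-keto form inside cells.

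The probe sets were 10804132 for Nr3c1 on chromosome 18, 10810539 for Nr3c2 on chromosome 19, 10831940 for Fkbp5 on chromosome 20 and 10717331 for Sgk1 on chromosome 1. Those of the other genes were 10939516 for Tsc22d3 on chromosome X, 10860900 for Pdk4 on chromosome 4, 10832920 for Ddit4 on chromosome 20 and 10770795 for Hsd11b1 on chromosome 13. Chromosomes are those of the rat assembly GRCr8 in RefSeq.

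The promoters of the 5 induced genes are shown because these genes carry most of the differences described here, and because several of them varied together between animals. Each sequence is the 250 bases before an annotated start in RefSeq, assembly GRCr8, read 5′ to 3′ on the minus strand. Sgk1 and Tsc22d3 have 3 annotated starts each. The windows shown for them were chosen after the motif search, for the most downstream start of each and for the match at a Tsc22d3 start further upstream. Capitals mark matches to CCAAT (or ATTGG, the same motif on the other strand), to TATAAA, or to ACANNNTGT, the core of the palindrome that the receptors bind.
Fkbp5, chr20:6543556-6543805: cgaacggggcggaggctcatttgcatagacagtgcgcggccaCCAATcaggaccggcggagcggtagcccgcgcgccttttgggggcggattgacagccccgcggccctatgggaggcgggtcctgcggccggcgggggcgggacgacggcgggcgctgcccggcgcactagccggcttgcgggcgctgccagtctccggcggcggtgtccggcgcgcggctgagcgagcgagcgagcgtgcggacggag
Tsc22d3, chrX:109010035-109010284: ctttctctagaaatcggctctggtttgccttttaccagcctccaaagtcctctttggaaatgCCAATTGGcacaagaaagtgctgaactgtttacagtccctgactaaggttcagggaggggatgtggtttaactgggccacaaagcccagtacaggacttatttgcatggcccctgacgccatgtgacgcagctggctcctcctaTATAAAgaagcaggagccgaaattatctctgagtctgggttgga
Tsc22d3, upstream start, chrX:109065431-109065680: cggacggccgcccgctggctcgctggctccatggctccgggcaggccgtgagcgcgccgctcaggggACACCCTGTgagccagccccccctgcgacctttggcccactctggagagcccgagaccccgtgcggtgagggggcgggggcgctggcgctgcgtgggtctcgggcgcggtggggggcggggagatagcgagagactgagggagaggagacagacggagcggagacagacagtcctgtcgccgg
Sgk1, chr1:24804832-24805081: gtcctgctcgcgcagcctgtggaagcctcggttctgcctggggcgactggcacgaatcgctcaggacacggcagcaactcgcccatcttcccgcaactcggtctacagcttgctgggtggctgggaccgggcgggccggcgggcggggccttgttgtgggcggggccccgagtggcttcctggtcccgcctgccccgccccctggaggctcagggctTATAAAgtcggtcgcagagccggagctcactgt
Pdk4, chr4:34568330-34568579: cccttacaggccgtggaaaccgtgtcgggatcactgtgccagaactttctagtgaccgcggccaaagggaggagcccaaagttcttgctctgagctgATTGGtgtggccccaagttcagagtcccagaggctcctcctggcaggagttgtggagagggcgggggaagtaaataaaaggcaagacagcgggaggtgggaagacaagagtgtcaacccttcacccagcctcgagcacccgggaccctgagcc
Ddit4, chr20:28437038-28437287: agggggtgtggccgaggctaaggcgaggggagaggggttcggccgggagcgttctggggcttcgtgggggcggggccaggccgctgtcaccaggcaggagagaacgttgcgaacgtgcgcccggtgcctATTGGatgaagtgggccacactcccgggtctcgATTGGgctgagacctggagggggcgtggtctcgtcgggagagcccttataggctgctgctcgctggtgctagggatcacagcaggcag

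None of the 6 windows held the full glucocorticoid response element, read as AGAACA, 3 free bases and TGTTCT, which 4 of 33469 rat promoter windows of the same length held on either strand. The core ACANNNTGT was found at the upstream start of Tsc22d3, at position -183 from the start, and in 5.81% of all windows. Of the 3 windows not shown, a Sgk1 window held TATAAA at -55 and the others held none of these motifs. A TATAAA motif lay at -33 in the Sgk1 window shown and at -44 in the first Tsc22d3 window, and 12.9% of all windows held one. CCAAT, on either strand, stood in the windows of Fkbp5, Pdk4, Ddit4 and the first Tsc22d3 start, and in 34.0% of all windows. The matches are descriptions of these letters, and the array did not measure binding. The table has no entry for Nr3c2 or Hsd11b1.

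Values are log2 intensities as deposited, and differences are on the log2 scale with standard errors from limma. A gene was called when its p-value, adjusted after Benjamini and Hochberg across the 29214 probe sets tested, was under 0.05. The probe sets lay on one scale, with array medians from 7.355 to 7.566, and levels are compared between groups for the same gene only. In bulk tissue, fewer cells of a type and less RNA per cell cannot be told apart. The hippocampal neuron markers Neurod6, Zbtb20 and Prox1 averaged 11.82, 11.52 and 10.10 (log2 level over all animals). Spink8, the lowest of the 9 neuron markers, averaged 5.96. The choroid plexus marker Ttr averaged 12.33, and the choroid plexus list, 11 probe sets, averaged between 7.06 and 10.9 in single animals, so each strain held animals with little and with much of this tissue.

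Some arrays stood apart from their labels or their group. By the X-linked genes Eif2s3, Ddx3x and Pbdc1, 8 arrays went against their sex label: female control 2 and 4 arrays of rats exposed to 750 ppm in Sprague Dawley, and female controls 1 and 3 and male control 4 in Long Evans, with none in Fischer. Within each group, animals with lower and upper numbers in their labels also differed, at 18.9% of probe sets in Sprague Dawley, 0.0993% in Long Evans and 60.9% in Fischer. What these numbers mark is not given in the labels. Each group had its own run of numbers, so what a run marks cannot be told apart from strain and treatment. In Long Evans, the run of the perinatal 750 ppm females directly followed those of the controls, and the other exposed groups had higher numbers. The upper and lower sets compare animals within a group only. Numbers are not matched between strains, so a strain difference given by set also holds each strain's own difference between the sets. Every call of the 8 genes was therefore set beside its value with lower and upper numbers as a block and without the 8 arrays, and is given here where it changed.

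Strain comparisons of control animals asked how these genes differ without lead. The controls of each strain also had their own runs of label numbers, which cannot be told apart from strain. Long Evans controls stood apart: Fkbp5 and Tsc22d3 were lower in Long Evans than in both other strains, and Sgk1 and Hsd11b1 were lower than in Fischer. Sprague Dawley controls had less Nr3c2 than both other strains and less Sgk1 than Fischer. Nr3c1 was not called in any of the 3 comparisons. The strains differed broadly: 24.5% of all probe sets were called between Sprague Dawley and Long Evans, 10.5% between Sprague Dawley and Fischer and 25.1% between Long Evans and Fischer, against 3, 2 and 4 of the 8 genes here.

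**Figure D1:**
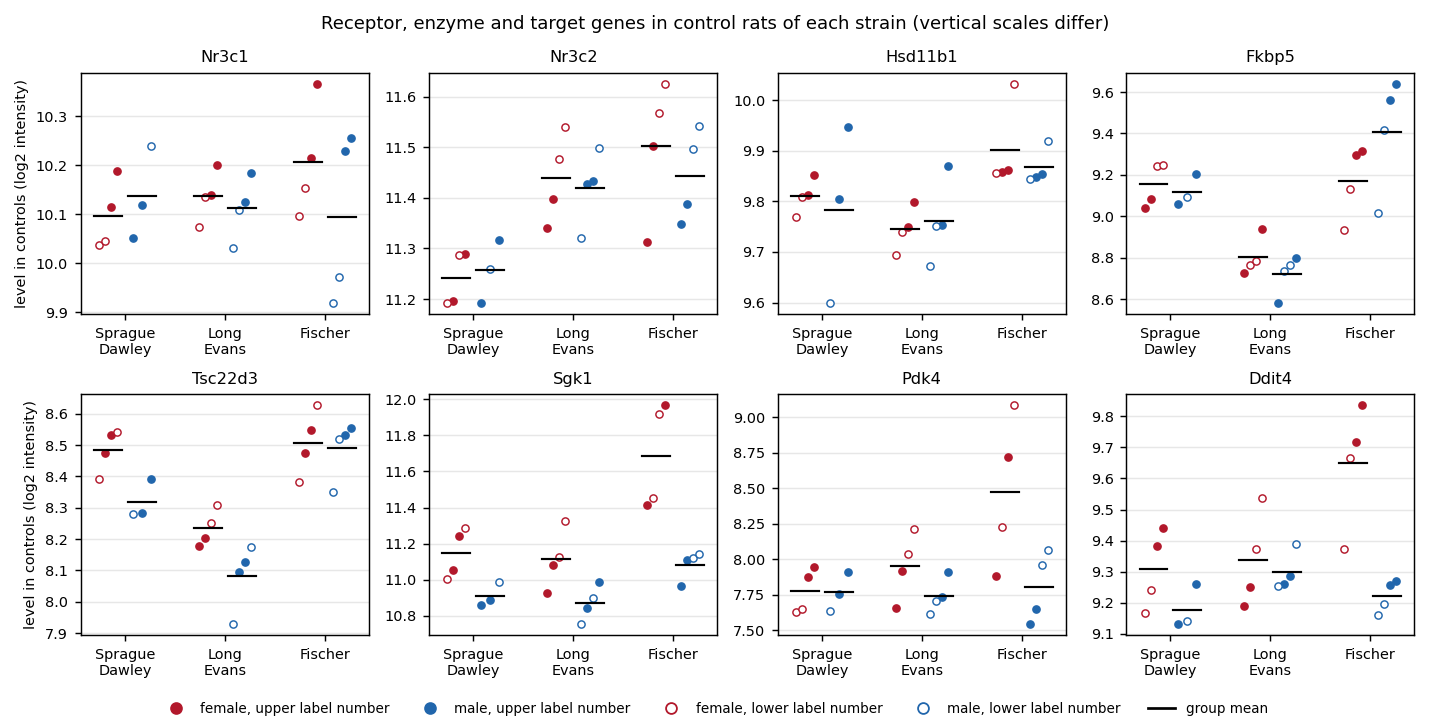
Log2 levels (y axis) of the 8 genes in single control rats, with Sprague Dawley, Long Evans and Fischer from left to right, females left of males, and black bars for group means (n = 4, or 3 for Sprague Dawley males). Filled points are animals with upper label numbers and open points those with lower ones. Fkbp5 in Long Evans controls lies between 8.58 and 8.94, below all Sprague Dawley controls.

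Nr3c2 in Sprague Dawley controls had a lowest value of 11.19, a median of 11.26 and a highest value of 11.32. Long Evans controls ran from 11.32 to 11.54 with a median of 11.43, and Fischer controls from 11.31 to 11.62 with a median of 11.50. The highest Sprague Dawley value thus met the lower end of both other strains, just above the lowest Fischer value. The difference was -0.18 ± 0.05 from Long Evans (adjusted p = 0.00671, limma) and -0.22 ± 0.05 from Fischer (adjusted p = 0.00138), that from Fischer being -0.14 among upper and -0.31 among lower label numbers. Without the arrays against their sex label, the difference from Long Evans was no longer called (adjusted p = 0.0513). The hippocampal neuron list averaged 10.15 in female and 10.2 in male Sprague Dawley controls, 10.21 and 10.25 in Long Evans and 10.23 and 10.23 in Fischer controls. The thalamus list, 3 probe sets, averaged 8.20 and 8.39 in Sprague Dawley females and males, 8.13 and 8.15 in Long Evans and 8.10 and 8.01 in Fischer. The part of these lists was not tested. Nr3c1 averaged 10.12, 10.12 and 10.15 in Sprague Dawley, Long Evans and Fischer controls, with overlapping ranges.

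Fkbp5 ran from 9.04 to 9.25 with a median of 9.09 in Sprague Dawley controls. It ran from 8.58 to 8.94 with a median of 8.77 in Long Evans controls, and from 8.93 to 9.64 with a median of 9.31 in Fischer controls. All Long Evans values were below all Sprague Dawley values, and only the lowest Fischer animal overlapped them. Fkbp5 was higher in Sprague Dawley than in Long Evans by 0.37 ± 0.09 (adjusted p = 0.000775, limma) and lower in Long Evans than in Fischer, at -0.53 ± 0.08 (adjusted p = 7.83e-07), with -0.69 among upper and -0.36 among lower label numbers.

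Tsc22d3 followed the same order of strains. It ran from 8.28 to 8.54 with a median of 8.39 in Sprague Dawley controls, from 7.93 to 8.31 with a median of 8.18 in Long Evans controls and from 8.35 to 8.63 with a median of 8.53 in Fischer controls. No Long Evans animal reached the lowest Fischer animal. The differences were 0.24 ± 0.08 for Sprague Dawley against Long Evans (adjusted p = 0.0123, limma) and -0.34 ± 0.07 for Long Evans against Fischer (adjusted p = 0.00019).

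Sgk1 ran from 10.86 to 11.29 in Sprague Dawley controls, from 10.75 to 11.33 in Long Evans controls and from 10.96 to 11.97 in Fischer controls. These ranges overlapped, and the Fischer females made up the upper end, with 11.45, 11.92, 11.97 and 11.41. The gene was lower in Sprague Dawley than in Fischer by -0.36 ± 0.11 (adjusted p = 0.027, limma) and lower in Long Evans than in Fischer by -0.39 ± 0.11 (adjusted p = 0.00408). The Sprague Dawley call was lost without any 1 of 5 control animals: Fischer female 2 or 3, Sprague Dawley female 2, or Sprague Dawley male 2 or 3, with an adjusted p up to 0.077. Hsd11b1 ran from 9.67 to 9.87 in Long Evans controls and from 9.85 to 10.03 in Fischer controls, a difference of -0.13 ± 0.04 (adjusted p = 0.0209), with -0.06 among upper and -0.20 among lower label numbers. That call was lost without Fischer female control 1 (adjusted p = 0.0656), which had the 10.03, without Long Evans male control 1 (adjusted p = 0.0577), or after a further quantile normalization (adjusted p = 0.0576). Pdk4 and Ddit4 were not called between the strains' controls, but Pdk4 was with the label numbers as a block, lower in Sprague Dawley than in Fischer (-0.37, adjusted p = 0.0321).

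With control and exposed animals pooled, in all treatments, 3 of the 8 genes were called between Sprague Dawley and Long Evans, 5 between Sprague Dawley and Fischer and 5 between Long Evans and Fischer. The shares of all probe sets were 62.2%, 40.7% and 61.2%. Fkbp5 averaged 9.16 in Sprague Dawley, 8.90 in Long Evans and 9.22 in Fischer rats. Sprague Dawley was above Long Evans by 0.20 among upper and 0.31 among lower label numbers, and Long Evans below Fischer by -0.48 among upper and -0.17 among lower ones. The difference of Sprague Dawley from Fischer, which was not called, turned with the numbers, at -0.28 among upper and 0.14 among lower ones. Hsd11b1 averaged 9.75 in Sprague Dawley, 9.75 in Long Evans and 9.91 in Fischer rats, so that both other strains were below Fischer, by -0.16 ± 0.02 and -0.15 ± 0.02 (adjusted p = 7.38e-11 and 7.18e-11, limma). Among upper label numbers these differences were -0.06 and -0.09, and among lower ones -0.27 and -0.22. With the label numbers as a block Nr3c1 was called as well, higher in Sprague Dawley than in Long Evans by 0.04 and lower in Long Evans than in Fischer by -0.05 (adjusted p = 0.0407 and 0.0124). Pdk4 was called lower than Fischer in both strains, but that difference changed sign between the label-number sets, which are not matched between strains. Fischer itself averaged 7.912 among upper and 8.316 among lower numbers. Sprague Dawley averaged 7.963 and 7.814, and Long Evans 7.999 and 7.905. For Sprague Dawley it was 0.05 among upper and -0.51 among lower numbers, and for Long Evans it was 0.09 among upper and -0.41 among lower numbers. The call of Ddit4 between Sprague Dawley and Fischer, -0.09 ± 0.03 (adjusted p = 0.0264), was lost with array weights (adjusted p = 0.0666), after quantile normalization (adjusted p = 0.0756) or without Fischer female perinatal 750 ppm animal 4 (adjusted p = 0.0517).

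Other genes of the pathway also differed between the strains' controls. Of 35 probe sets of other glucocorticoid-induced genes, 4 were higher and 10 lower in Long Evans than in Fischer, with a median difference of -0.13 against -0.01 over all probe sets, of which 11.7% were called higher and 13.4% lower. Net1 was lower by -0.67, Gpd1, the glycerol-3-phosphate dehydrogenase of the cytosol, by -0.66 and Mertk, a receptor kinase of phagocytosis, by -0.54. Sult1a1, Sdc4, Errfi1, Slc2a1, Mt2A, with 2 probe sets, and Id2 were lower as well. Dusp1, a phosphatase that switches off MAP kinases, was higher by 0.63, as were Lcn2, Edn1 and Fam107a. Between Sprague Dawley and Long Evans, 9 of these probe sets were higher and 5 lower, with a median of 0.06 against 0.02 and shares of 12.4% and 12% over all probe sets. Gpd1 was higher in Sprague Dawley by 1.0 and Dusp1 lower by -1.0. Lcn2, Mertk, Net1, Sdc4, Rasd1, Sult1a1, Txnip and Slc2a1 were also higher in Sprague Dawley than in Long Evans, and Per1, Nedd9, Ehd3 and Fam107a were also lower. Between Sprague Dawley and Fischer, 3 were higher (Lcn2 at 0.85, Edn1 and Rasd1) and 5 lower (Net1, Bcl6, Per1, Nedd9 and Ehd3, from -0.25 to -0.20), against 4.41% and 6.13% of all probe sets.

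Among 20 probe sets of 13 receptor chaperones and coregulators, none were called higher in any of these comparisons. In Sprague Dawley 2 were lower than in Long Evans (Dnajb1 and Ncoa1) and 3 lower than in Fischer (Bag1, Ptges3 and Dnajb1). In Long Evans 5 were lower than in Fischer (Bag1, Ptges3, Ncoa3, Ncor1 and 1 of the 8 probe sets of Hspa8). Over all probe sets the shares called lower were 12%, 6.13% and 13.4%, so the counts of 2, 3 and 5 of 20 were of the order of the background. Dnajb1, an Hsp40 co-chaperone, was lower in Sprague Dawley by -0.35 than in Long Evans and by -0.26 than in Fischer. In the corticotropin-releasing hormone system of 9 probe sets, Crhbp, which binds and sequesters the hormone, was lower in Sprague Dawley by -0.51 than in Long Evans and by -0.33 than in Fischer. Crh and the vasopressin receptor gene Avpr1a were lower in Sprague Dawley than in Long Evans, by -0.25 and -0.31, and Avpr1a was higher in Long Evans than in Fischer by 0.22. Of 7 other probe sets for steroid metabolism and access, the transporter genes Abcb1a and Abcb1b, whose products export steroids at the blood-brain barrier, were lower in Long Evans than in Fischer, by -0.26 and -0.40. Both were higher in Sprague Dawley than in Long Evans, by 0.27 and 0.38. Cyp7b1 was higher in Long Evans than in both other strains, and Serpina6, which encodes corticosteroid-binding globulin, was higher in Sprague Dawley than in Fischer by 0.20. Without the arrays against their sex label, some of these pathway calls were lost. In Long Evans against Fischer they were Hspa8, Abcb1a, Sult1a1 and 1 of the 2 Mt2A probe sets, in Sprague Dawley against Fischer Net1, and in Sprague Dawley against Long Evans Ehd3, Crh, Txnip, Abcb1a, Sult1a1 and Lcn2 (adjusted p from 0.0604 to 0.14).

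Activity-induced immediate early genes, a list that also holds Dusp1, moved with the same comparisons. Of 10, 9 were lower in Sprague Dawley than in Long Evans, with a median of -0.70, and 8 were higher in Long Evans than in Fischer, with a median of 0.43. The 11 choroid plexus probe sets were all below Fischer in Sprague Dawley controls, with a median of -0.53 and none called. With the choroid plexus level as a covariate none of the 9 calls of the 8 genes between controls was lost. The part of the immediate early genes was not tested.

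The effect of lead was first read group by group, each exposed group against the controls of its strain and sex, which gave 24 comparisons. Of 192 gene tests, 1 was called, and 27 had an unadjusted p under 0.05. Of all 29214 probe sets, 327 to 2730 had such a p-value in a single comparison. Several of the genes varied together between animals, so the tests are not independent. The 4 comparisons of a strain and sex share their controls. The called change was a higher Tsc22d3 in Long Evans females exposed perinatally to 750 ppm, a comparison that called 39 probe sets in all, 0.133%. No comparison called either receptor gene, and over the 24 comparisons Nr3c1 ranged from -0.19 to 0.15 and Nr3c2 from -0.16 to 0.08.

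**Figure D2:**
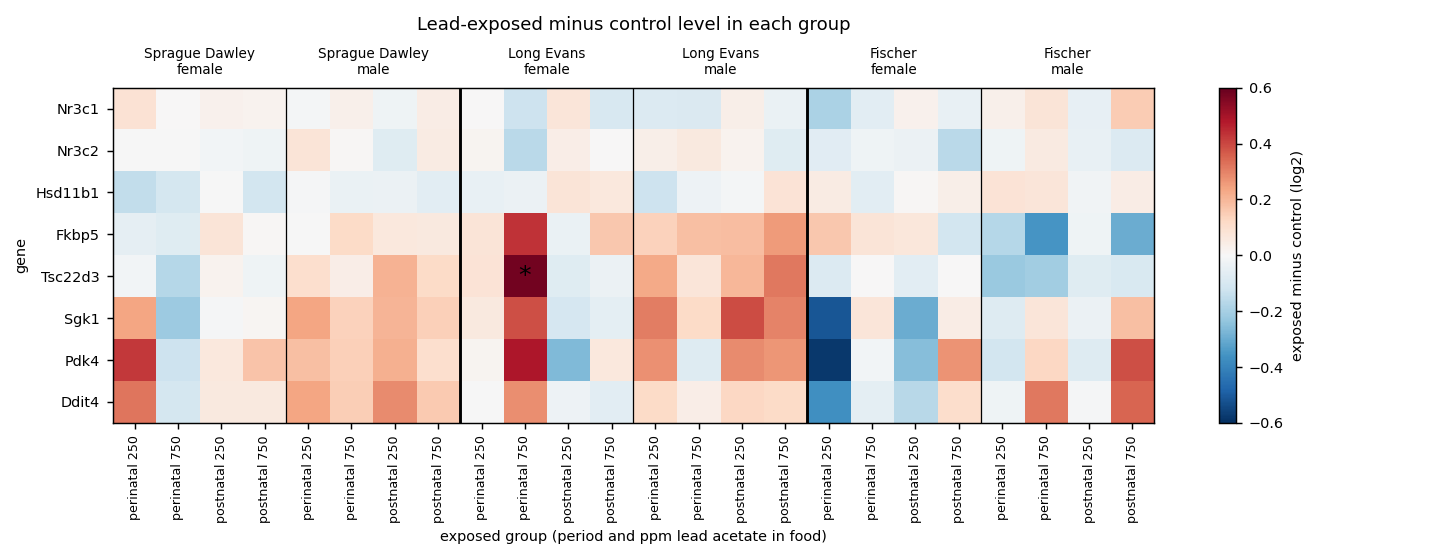
Log2 difference of each exposed group from the controls of its strain and sex (colour scale), for the 8 genes in rows and the 24 exposed groups in columns. The asterisk marks the called change, Tsc22d3 in Long Evans females after perinatal 750 ppm, at 0.58.

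Tsc22d3 in these Long Evans females was 8.60, 8.84, 8.82 and 9.0 in the exposed animals and 8.31, 8.25, 8.20 and 8.18 in the controls. Every exposed animal lay above every control. The difference was 0.58 ± 0.11 (adjusted p = 0.0174, limma), with 0.72 among upper and 0.44 among lower label numbers. Fkbp5 in the same animals was 9.09, 9.23, 9.38 and 9.24 in the exposed and 8.77, 8.79, 8.94 and 8.73 in the controls, also without overlap. Its difference of 0.43 ± 0.10 did not pass the adjustment (adjusted p = 0.0624). Pdk4, Sgk1 and Ddit4 differed by 0.49, 0.39 and 0.28 (adjusted p = 0.693, 0.698 and 0.634), and Nr3c1, Nr3c2 and Hsd11b1 by -0.12, -0.16 and -0.04.

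The Tsc22d3 call rests on few animals. It was lost when any 1 of 6 was left out: Long Evans female control 1, 3 or 4, or exposed female 2, 3 or 4, with adjusted p from 0.0509 to 0.133. Female controls 1 and 3 were among the arrays against their sex label. Without the arrays against their label, female controls 2 and 4 remained beside the 4 exposed females. The difference was then 0.60 with an adjusted p of 0.243 (limma). In Long Evans males exposed perinatally to 750 ppm Tsc22d3 was 8.12, 8.29, 8.16 and 8.04, against 8.18, 7.93, 8.10 and 8.13 in male controls, and the values overlapped. Over both sexes the effect of perinatal 750 ppm in Long Evans was 0.32 for Tsc22d3 and 0.31 for Fkbp5 (adjusted p = 0.12 and 0.0724), neither of them called, where 0.113% of probe sets were. Of the other induced genes, Gpd1 (0.70), Hif3a (0.47) and both Mt2A probe sets (0.29 and 0.34) were called in that comparison, and none of them without the arrays against their sex label (adjusted p from 0.148 to 0.196).

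**Figure D3:**
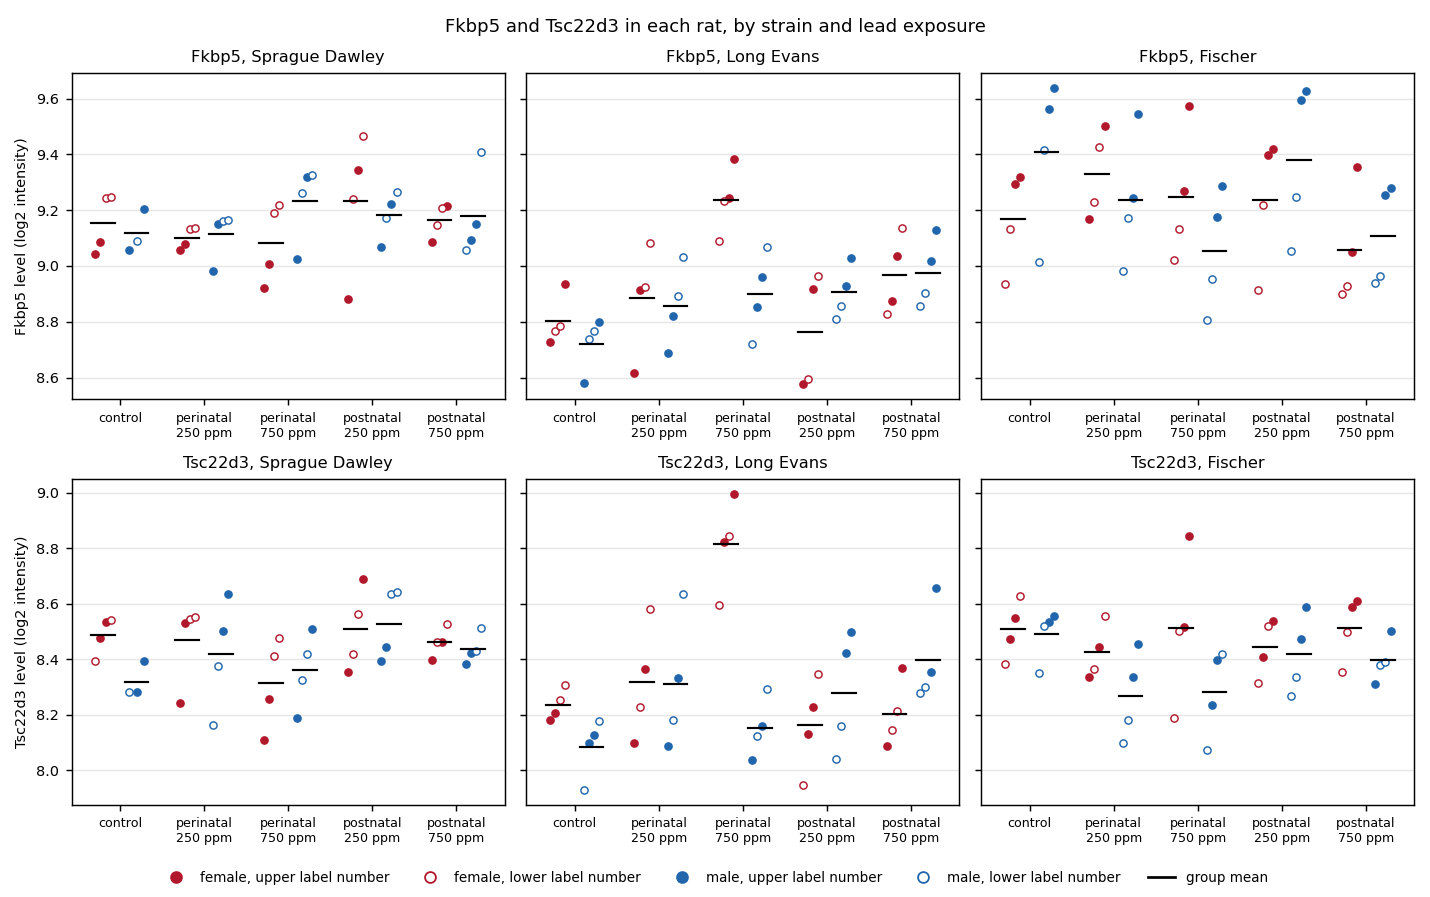
Fkbp5 and Tsc22d3 log2 levels (y axis) in every rat by treatment (x axis), with strains in panels from Sprague Dawley to Fischer, females in red and males in blue, filled points for upper and open points for lower label numbers, and black bars for group means. Among Long Evans, the perinatal 750 ppm females are above their controls for both genes, with Tsc22d3 from 8.60 to 9.0 against 8.18 to 8.31.

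In the Long Evans females alone, after perinatal 750 ppm, 3 of 35 probe sets of other glucocorticoid-induced genes were called, all higher. Gpd1 was higher by 1.05, the sulfotransferase gene Sult1a1 by 0.78 and the hypoxia-inducible factor gene Hif3a by 0.69. Positive differences were seen for 30 of the 35, with a median of 0.22 against -0.0012 over all probe sets. Without the arrays against their sex label, with female controls 2 and 4 left, none of the 3 was called (adjusted p = 0.351, 0.511 and 0.352, limma). Cell type markers differed beside them, none of them called. The choroid plexus list was lower at 11 of 11 probe sets, with a median of -0.65 and a mean level per animal from 7.36 to 10.4 in exposed and from 7.06 to 10.3 in control females. Meningeal markers were higher at 9 of 10 and oligodendrocyte markers at 10 of 11, with medians of 0.22 and 0.13. The astrocyte list averaged 11.18 in exposed and 11.09 in control females, and the thalamus list 8.34 and 8.13. Immediate early genes were lower at 10 of 10, with a median of -0.15. With the choroid plexus level as a covariate, the Tsc22d3 difference was 0.57 (adjusted p = 0.0311). The part of the other lists was not tested.

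In the other strains no exposed group was called for any of the 8 genes. The smallest p-value in Fischer was that of Sgk1 in females exposed perinatally to 250 ppm, with 11.49, 11.20, 10.92 and 11.09 against 11.45, 11.92, 11.97 and 11.41 in controls. The groups overlapped, and the difference was -0.51 ± 0.14 (adjusted p = 1.0, limma). In Sprague Dawley it was Ddit4 in females exposed perinatally to 250 ppm, with 9.72, 9.66, 9.64 and 9.50 against 9.17, 9.24, 9.44 and 9.38 in controls. These groups did not overlap, yet the difference of 0.32 ± 0.10 did not pass the adjustment (adjusted p = 0.989). Of the pathway genes, Dusp1 was called outside Long Evans, higher by 0.97 in Fischer males after postnatal 750 ppm (adjusted p = 0.0201), where 0.0137% of probe sets were called. Immediate early genes, Dusp1 among them, were higher in these males at 10 of 10 probe sets, with 2 called and a median of 0.51. Over both sexes it was also higher in Sprague Dawley after perinatal 250 ppm, by 0.74 (adjusted p = 0.025, with 0.0582% of probe sets called), a call lost without the arrays against their sex label (adjusted p = 0.138). Immediate early genes, Dusp1 among them, were higher there as well, at 10 of 10 probe sets with 5 called. Their part was not tested.

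Averaged over the 8 exposed groups of a strain, no gene of the set was called. In Long Evans, Fkbp5 averaged 0.17 ± 0.05 above control (adjusted p = 0.264, limma), with 7 of 8 exposed groups above their controls, and Tsc22d3 and Sgk1 averaged 0.17 each (adjusted p = 0.431 and 0.647). In Sprague Dawley, Ddit4 and Pdk4 were above control in 7 of 8 groups, with means of 0.14 and 0.15, and Hsd11b1 in 0 of 8. The Hsd11b1 difference was only -8.25e-05 in postnatal 250 ppm females. The exposed groups of a strain and sex share their controls, so these counts are not of independent groups. In Fischer, the 8 mean effects lay between -0.09 and 0.03. The shares of all probe sets called for the mean effect were 0.0171% in Sprague Dawley, 0.212% in Long Evans and 0 in Fischer, where 729 probe sets had an unadjusted p under 0.05. Among the other induced genes, Gpd1 at 0.52 and 1 of the 2 Mt2A probe sets at 0.19 were called in Long Evans (adjusted p = 0.0399 and 0.0476). Both were lost without the arrays against their sex label (adjusted p = 0.207 and 0.357), and the Mt2A call also with the block (adjusted p = 0.0514). Oligodendrocyte markers were higher at 11 of 11 probe sets in that Long Evans mean, with 5 called. Immediate early genes were lower at 10 of 10, with 2 called. Their part was not tested. Strain differences of the mean effect and sex differences of it called none of the 8 genes. The strain tests called 0.0787% of probe sets between Sprague Dawley and Long Evans, 0.0103% between Sprague Dawley and Fischer and 0.13% between Long Evans and Fischer. Dusp1 was among them, with an effect higher in Sprague Dawley than in Long Evans by 0.75, and so was 1 of the Mt2A probe sets, with an effect higher in Long Evans than in Fischer by 0.26, lost without the arrays against their sex label (adjusted p = 0.476).

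Postnatal against perinatal exposure called none of the 8 genes in any strain, while 0.0411%, 0.065% and 0.00342% of probe sets were called in Sprague Dawley, Long Evans and Fischer. The smallest p-value was that of Hsd11b1 in Long Evans, which averaged 9.81 after postnatal and 9.69 after perinatal exposure, a difference of 0.11 ± 0.03 (adjusted p = 0.104, limma).

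The comparison of 750 with 250 ppm, over both sexes and both periods of a strain, asked whether the genes followed the amount of lead. In Fischer, Ddit4 was higher at 750 ppm, with a mean of 9.61 against 9.29 at 250 ppm (n = 16 each). The difference was 0.32 ± 0.06 (adjusted p = 0.0063, limma), and 21 probe sets were called in all, 0.0719%, with 0.0548% higher at 750 ppm. In females, Ddit4 at 750 ppm was 9.77, 9.51, 9.88 and 9.85 after postnatal and 9.45, 9.41, 9.51 and 9.98 after perinatal exposure. Females at 250 ppm had 9.40, 9.61, 9.52 and 9.41 after postnatal and 9.64, 9.09, 9.16 and 9.24 after perinatal exposure. These female groups overlapped within each period, by 1 postnatal animal at 750 ppm with 9.51 and by 1 perinatal animal at 250 ppm with 9.64.

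In males, Ddit4 at 750 ppm was 9.81, 9.56, 9.47 and 9.44 after postnatal and 9.54, 9.54, 9.54 and 9.52 after perinatal exposure. Males at 250 ppm had 9.10, 9.22, 9.32 and 9.22 after postnatal and 9.15, 9.30, 9.27 and 9.06 after perinatal exposure, and in both periods the doses did not overlap. The dose difference was positive in all 4 pairs, from 0.27 in postnatal females to 0.36 in postnatal males. It was called in each of 40 fits that left out 1 animal, and it was 0.38 among upper and 0.26 among lower label numbers. Control females had 9.37, 9.67, 9.84 and 9.72, which overlapped both doses. Their mean of 9.65 was above the female 250 ppm means, 9.28 perinatal and 9.48 postnatal. It lay between the female 750 ppm means, 9.59 perinatal and 9.75 postnatal. Control males had 9.16, 9.19, 9.27 and 9.26, within the range of the 250 ppm males and below every 750 ppm male.

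**Figure D4:**
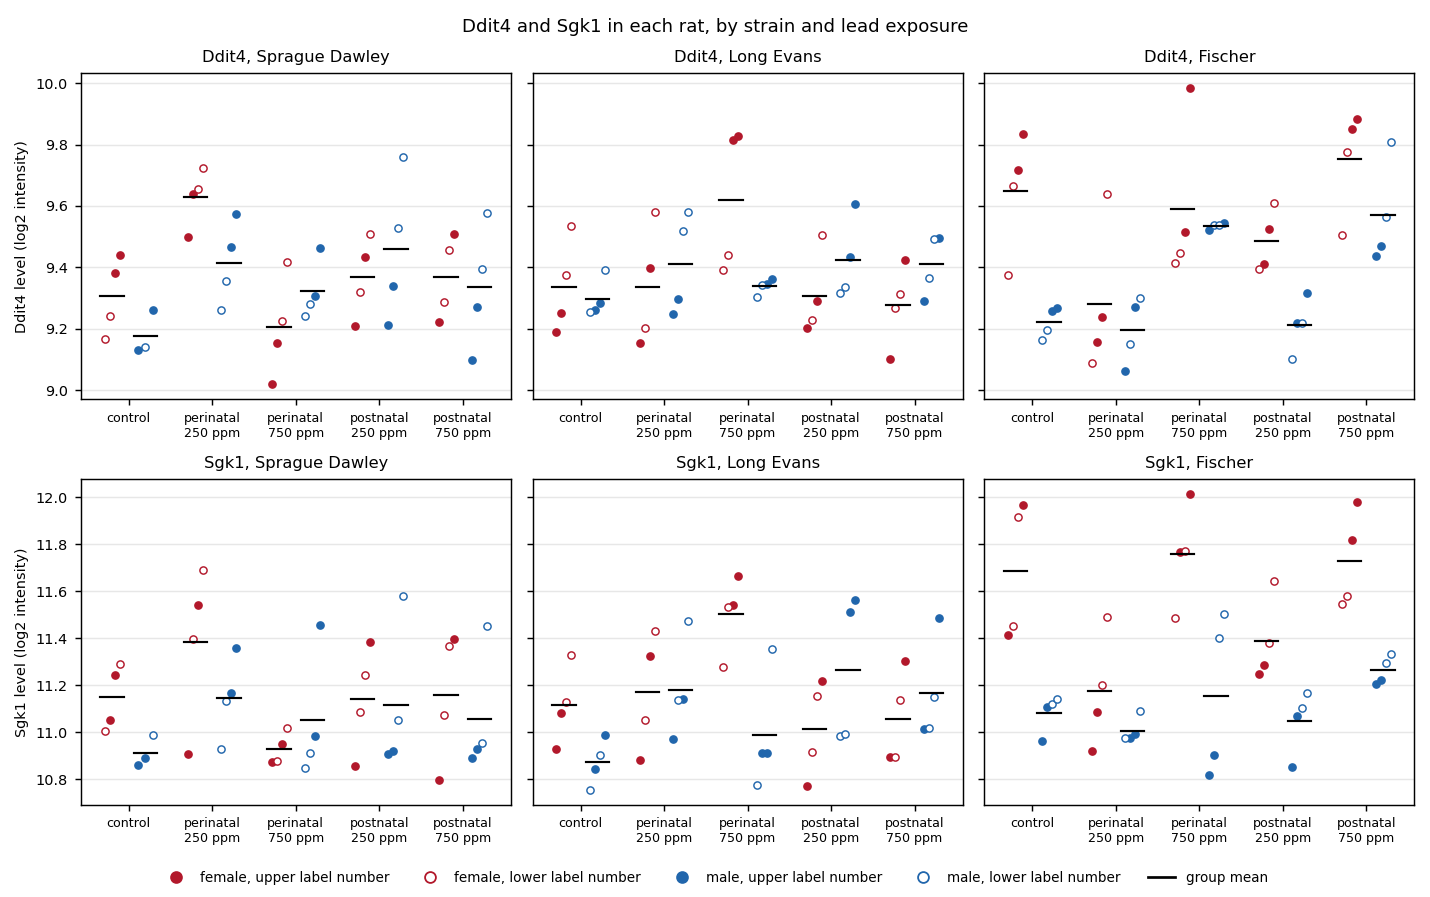
Ddit4 and Sgk1 log2 levels (y axis) in every rat by treatment (x axis), with strains in panels from Sprague Dawley to Fischer, females in red and males in blue, filled points for upper and open points for lower label numbers, and black bars for group means. In Fischer, Ddit4 is higher at 750 than at 250 ppm in each sex and period, and Sgk1 is higher in females than in males in each of the 5 treatments.

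Sgk1 and Pdk4 had differences in the same direction in Fischer that did not pass the adjustment, 0.32 ± 0.07 and 0.44 ± 0.12 (adjusted p = 0.0645 and 0.335, limma). When the label numbers entered the fit as a block, all 3 genes were called (adjusted p = 0.00318 for Ddit4, 0.0279 for Sgk1 and 0.0333 for Pdk4). Among 35 probe sets of other induced genes, Dusp1 was the only one called, at 0.69 (adjusted p = 2.61e-05), and 18 were positive. The median was 0.003 against -0.004 over all probe sets. Immediate early genes, Dusp1 among them, were higher at 10 of 10 probe sets, with 8 called and a median of 0.39. Their mean level per animal ran from 8.62 to 9.25 at 750 ppm and from 8.15 to 8.84 at 250 ppm. Choroid plexus markers were higher at 11 of 11, with a median of 0.81 and none called, and a mean per animal from 7.27 to 10.8 at 750 ppm and from 7.16 to 10.2 at 250 ppm. Meningeal markers were higher at 10 of 10, with a median of 0.23, and hippocampal neuron markers lower at 8 of 9, with a median of -0.09, none of either called. With the choroid plexus level as a covariate, the Ddit4 difference was 0.32 (adjusted p = 0.0161). The part of the immediate early genes was not tested.

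In Sprague Dawley the dose differences of Ddit4, Sgk1 and Pdk4 were -0.16, -0.15 and -0.15, none of them called (adjusted p = 1.0 each). In Long Evans they were 0.04, 0.02 and 0.11, also not called, and Fkbp5 had 0.17 ± 0.05 (adjusted p = 0.29, limma). Whether the dose difference itself differed between strains was tested after these values had been seen. For Ddit4 it was lower in Sprague Dawley than in Fischer by -0.48 ± 0.08 (adjusted p = 9.01e-05), with -0.54 among upper and -0.41 among lower numbers, and the call held in every fit that left out 1 of the animals. That test called 0.0753% of probe sets. Sgk1 was also called in it, at -0.47 ± 0.11 (adjusted p = 0.0464), but the call was lost in 58 fits without 1 animal and with the choroid plexus level as a covariate (adjusted p = 0.0863).

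Between Long Evans and Fischer, where the same kind of test called 0.192% of probe sets, the dose difference of Fkbp5 was larger in Long Evans by 0.35 ± 0.08 (adjusted p = 0.0492, limma). In Fischer Fkbp5 was -0.18 ± 0.08 at 750 against 250 ppm (adjusted p = 0.828). The call was lost in 83 fits without 1 animal, with the choroid plexus covariate (adjusted p = 0.0894), after quantile normalization, or without the arrays against their sex label (adjusted p = 0.0624). The Ddit4 and Pdk4 dose differences were not called there (adjusted p = 0.117 and 0.507). With the label numbers as a block, 2 further genes were called in these tests: Pdk4 in Sprague Dawley against Fischer (-0.59, adjusted p = 0.0116) and Nr3c1 in Long Evans against Fischer (-0.17, adjusted p = 0.0345). Of the other pathway genes, the dose difference was lower in Sprague Dawley than in Fischer for Dusp1 (-0.87), the NF-κB inhibitor gene Nfkbia (-0.59) and the clock gene Per1 (-0.33). In Long Evans it was lower than in Fischer for Dusp1 (-0.65) and higher for Crhbp (0.33), Zbtb16 (0.31) and both probe sets of the metallothionein gene Mt1 (0.32 and 0.34). The Mt1 call at 0.32 was lost without the arrays against their sex label (adjusted p = 0.0521). Immediate early genes, Dusp1 among them, were lower at 10 of 10 probe sets in both tests, with 7 called for Sprague Dawley and 6 for Long Evans. Choroid plexus markers were lower at 11 of 11, with medians of -1.17 and -0.80 and none called.

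Females against males, over all treatments, differed in Sgk1. In Fischer females Sgk1 ran from 10.92 to 12.01 with a median of 11.52, and in Fischer males from 10.82 to 11.50 with a median of 11.1 (n = 20 each). The difference was 0.44 ± 0.06 (adjusted p = 0.000168, limma), and 24 probe sets were called in all, 0.0822%, with 0.0445% higher in females. Females were higher in all 5 treatments, by 0.17 to 0.60. In controls, where females had 11.45, 11.92, 11.97 and 11.41 and males 11.12, 11.14, 11.11 and 10.96, the sexes did not overlap. They also did not overlap at postnatal 750 ppm (11.58, 11.55, 11.98 and 11.82 in females and 11.33, 11.29, 11.22 and 11.21 in males) and at postnatal 250 ppm (11.38, 11.64, 11.25 and 11.28 in females and 11.17, 11.10, 10.85 and 11.07 in males). They overlapped in both perinatal treatments.

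The Sgk1 difference was 0.54 among upper and 0.33 among lower label numbers, and it was called in each of 40 fits that left out 1 animal. No Fischer array went against its sex label. Choroid plexus markers were higher in Fischer females at 11 of 11 probe sets, with a median of 0.32 and none called. With their level as a covariate the Sgk1 difference was 0.42 (adjusted p = 0.000353). Pdk4 was higher in Fischer females in all 5 treatments, by 0.49 ± 0.11, which did not pass the adjustment (adjusted p = 0.08, limma) and did when the label numbers entered the fit as a block (adjusted p = 0.00276). No probe set of the 4 pathway lists was called in this comparison.

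In Sprague Dawley and Long Evans, Sgk1 differed between the sexes by 0.10 and 0.08, neither called (adjusted p = 0.651 and 0.562, limma). The arrays against their sex label were all in these strains. They entered these values, and the tests against Fischer below, under their labels. Over the 3 strains together, females averaged 11.29 and males 11.09, a difference of 0.20 ± 0.04 (adjusted p = 0.00199, limma), in a comparison that called 0.154% of probe sets. Pdk4, at 0.20 (adjusted p = 0.115), was called there with the label numbers as a block (adjusted p = 0.0159) or without the arrays against their sex label (adjusted p = 0.048). The sex difference itself was set against Fischer by a test chosen after these values had been seen. It was lower in Sprague Dawley by -0.34 (adjusted p = 1.0) and lower in Long Evans by -0.36 ± 0.10 (adjusted p = 0.0729), and none of the 8 genes was called in 3 such comparisons. The Long Evans test called 0.133% of probe sets, and Sgk1 was called in it when the label numbers entered the fit (adjusted p = 0.0416).

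Upper against lower label numbers within groups differed for 6 of the 8 genes in Fischer, where 60.9% of probe sets did. Upper-numbered Fischer animals had more Nr3c1, with a mean of 10.24 against 10.05, and less Nr3c2, with 11.36 against 11.51. Fkbp5 was higher in them by 0.31 ± 0.04, Nr3c1 by 0.19 ± 0.03 and Tsc22d3 by 0.12 ± 0.04 (adjusted p = 1.9e-07, 1.69e-07 and 0.0106, limma). Pdk4 was lower by -0.40 ± 0.08, Nr3c2 by -0.15 ± 0.03 and Hsd11b1 by -0.10 ± 0.02 (adjusted p = 0.000126, 4.77e-06 and 0.00114). Sgk1 and Ddit4, which carried the dose and sex differences in Fischer, were not called (adjusted p = 0.155 and 0.392). Among the chaperones and coregulators, 14 of 20 probe sets, from 7 genes, were higher and 1 lower in upper-numbered Fischer animals, with Bag1 (0.63) and Fkbp4 (0.42) among the higher. In upper-numbered Sprague Dawley animals 15 of the 20, from 8 genes, were lower. Of all probe sets, 18.6% were higher and 42.3% lower in upper-numbered Fischer animals, and 8.71% were lower in upper-numbered Sprague Dawley animals. The gene of the chaperone Hspa8 supplied 8 probe sets to each of these counts. In Sprague Dawley, Hsd11b1 was higher by 0.12 and Fkbp5 lower by -0.12 (adjusted p = 0.00103 and 0.0213), and in Long Evans none of the 8 was called. Of the other induced genes 7 of 35 probe sets were higher and 22 lower in upper-numbered Fischer animals. Meningeal markers were lower at 10 of 10 probe sets in upper-numbered Fischer animals, with 9 called. Their part was not tested.

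Variation between single animals was described after group means and the 2 label-number sets had been removed from every probe set. Over all animals, which share their array type and tissue dissection, Sgk1 and Pdk4 varied most alike among the 8 genes, with Pearson r = 0.797 and a Spearman rank correlation of 0.793. Pearson r was 0.862 in Sprague Dawley, 0.712 in Long Evans and 0.879 in Fischer, and 0.801 without the 2 animals farthest from the Sgk1 median. Ddit4 went with Pdk4 (r = 0.736) and with Sgk1 (r = 0.679). Tsc22d3 had r = 0.612 with Pdk4, 0.609 with Sgk1 and 0.565 with Fkbp5. Fkbp5 had r = 0.341 with Sgk1 and 0.23 with Ddit4. Nr3c1 had r = 0.0117 with Sgk1 and 0.0841 with Nr3c2. Nr3c2 had r = 0.0329 with Sgk1 and 0.0955 with Fkbp5, and its value with Fkbp5 reached 0.542 in Sprague Dawley, against -0.0212 in Long Evans and -0.18 in Fischer.

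**Figure D5:**
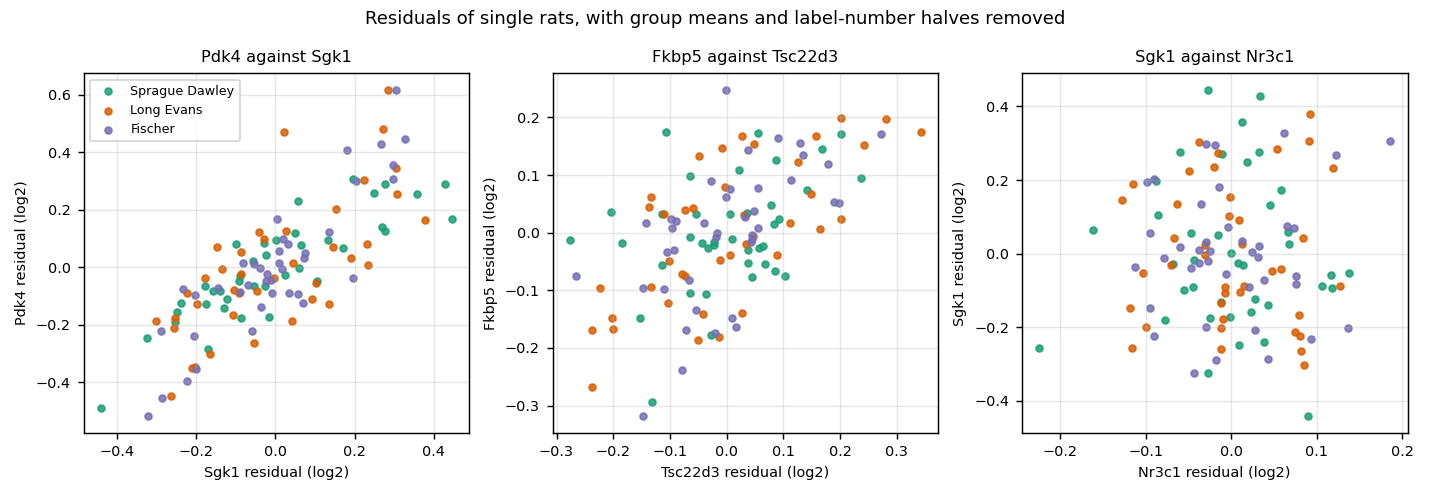
Residuals of single rats on the log2 scale after removal of group means and label-number sets, coloured by strain, 1 point per rat: Pdk4 against Sgk1, Fkbp5 against Tsc22d3, and Sgk1 against Nr3c1, with the first-named gene on the y axis. The first panel is an elongated cloud (r = 0.797), the second a broader one (r = 0.565) and the third has no slope (r = 0.0117).

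Of all single-symbol probe sets, the 3 whose residuals were most like those of each gene were listed, as a description. For Sgk1 they were Pdk4, Acer2 (r = 0.741) and Errfi1 (r = 0.714). For Pdk4 they were Sgk1, Nfkbia (r = 0.778) and Ddit4, and for Ddit4 they were Pdk4, Sgk1 and Nfkbia (r = 0.664). For Tsc22d3 they were Slc19a3 (r = 0.67), Gpd1 (r = 0.669) and Fzd8 (r = 0.66). Fkbp5 had Cdc40 (r = 0.593), Slc19a3 (r = 0.582, but 0.0303 when the label-number sets were left in) and Rfc1 (r = 0.581). Errfi1, Nfkbia and Gpd1 belong to the list of other glucocorticoid-induced genes.

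The neighbours of the receptors were other genes. Nr3c2 went with Sema5a (r = 0.724), Il16 (r = 0.676) and Pcdh20 (r = 0.653), and Nr3c1 with Pls1 (r = 0.713), the oligodendrocyte gene Ermn (r = 0.708) and Strbp (r = 0.701). Hsd11b1 had the weakest likeness, to Cnih2 (r = 0.501), Itpa (r = 0.481) and Lrp12 (r = 0.446). Against the mean of marker lists, which was computed after these values had been seen, Nr3c2 had r = 0.653 with hippocampal neurons and Nr3c1 r = 0.582 with oligodendrocytes. Nr3c2 had r = -0.272 with the thalamus list and -0.326 with a striatum list. Nr3c1 had r = 0.424 with the thalamus list and -0.329 with hippocampal neurons, the last of these -0.642 in Long Evans. In Sprague Dawley the hippocampal neuron mean had r = 0.841 with Nr3c2 and 0.618 with Fkbp5. The part of these lists was not tested here. The choroid plexus mean had r = 0.0357 with Sgk1, -0.129 with Ddit4 and -0.0237 with Pdk4, and -0.305 with Hsd11b1, -0.216 with Fkbp5 and 0.214 with Nr3c1. The mean of the immediate early genes had r = 0.235 with Sgk1, 0.325 with Ddit4 and 0.337 with Pdk4, and in Fischer 0.229, 0.542 and 0.414. The astrocyte mean had r = 0.276 with Sgk1, 0.269 with Ddit4, 0.318 with Pdk4 and 0.404 with Tsc22d3, the last of these 0.666 in Fischer.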

How the data were processed

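RNA of single hippocampal samples was hybridised to Affymetrix Rat Gene 1.0 ST arrays in 1 colour. The deposited values are log2 intensities of 29214 probe sets, from 2.293 to 14.18, made by the authors with RMA and the Partek software, per the submitters' processing notes; versions and any batch correction are not given in the sources used here. Probe sets were named from GEO's platform annotation, and 15310 carried a single symbol. No further normalization, filter or averaging was applied, and the number of animals limited the precision.

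Group means were fitted with limma 3.58.1 (R 4.3.3) on all probe sets, per strain, or in 1 fit of 30 groups for comparisons between strains. Tests are two-sided and moderated, with Benjamini-Hochberg adjustment per comparison over every probe set. The comparisons numbered 71, and 6 of them, the strain tests of the dose and sex differences, were added after the data were seen, as were the correlations with marker lists. Animals with numbers at least 2 above the lowest of their group formed the upper set. The fits were tested on simulated data with noise drawn separately for each animal. Those data hold no deviations shared by label number, so the test does not cover them. Files were read with version 1.17.8 of data.table, and figures were drawn with matplotlib 3.10.9.

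The genes and lists were chosen with earlier results of these data known. Named genes are the 8 measured members, called genes of 4 pathway lists, counted without the 8 where they hold them (those of the label-number comparison as counts, with 2 examples) and the 3 genes most like each member. Marker lists are given as counts and means. Alternatives were array weights, quantile normalization, the 40th percentile as a filter on level, 1 fit for all groups, the label sets, or their 4 places, as a block, the choroid plexus mean as a covariate, no arrays against their sex label, and each animal left out in turn.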

Additional observations from a re-analysis of the deposited data

Results flagged for a closer look

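In 8 of 232 sets of 4 animals, 1 animal stood far from the other 3, where chance gives about 5% of sets. Fischer control 1 of either sex did so for Hsd11b1, with 10.03 in the female and 9.92 in the male, and the male also for Tsc22d3, with 8.35. The others were Sgk1 in Sprague Dawley male postnatal 750 ppm animal 2, with 11.45, and in Fischer male perinatal 250 ppm animal 2, with 11.09. Fkbp5 in Sprague Dawley male perinatal 250 ppm animal 3 was 8.98, Tsc22d3 in Sprague Dawley female perinatal 250 ppm animal 4 was 8.24 and Nr3c1 in Long Evans male postnatal 750 ppm animal 3 was 10.17. The Sprague Dawley male postnatal 750 ppm animal 2 is among the arrays against their sex label.

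Of the dose differences, that of Ddit4 in Fischer was 0.32, and a test of the difference between strains gave -0.48 for Sprague Dawley against Fischer. The same test gave -0.47 for Sgk1 between Sprague Dawley and Fischer and 0.35 for Fkbp5 between Long Evans and Fischer. Both of these calls were near the threshold (adjusted p = 0.0464 and 0.0492, limma). They were lost in 58 and 83 fits that left out 1 animal, and with the choroid plexus covariate. The strain tests were chosen after the values had been seen.

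In 6 of 192 pairs of strains of 1 sex and treatment, every exposed animal lay above its control mean in 1 strain and below it in the other. No pair of sexes did so. How many such pairs chance would give, or how many other probe sets show, was not counted. The pairs share animals and controls, and these differences between strains were not tested. After perinatal 250 ppm, Ddit4 was 0.32 above control in Sprague Dawley females and -0.37 in Fischer females, Tsc22d3 was 0.23 in Long Evans males and -0.22 in Fischer males, and Hsd11b1 was -0.13 in Long Evans males and 0.08 in Fischer males. After perinatal 750 ppm, Tsc22d3 was -0.17 in Sprague Dawley females and 0.58 in Long Evans females, and Sgk1 was -0.22 in Sprague Dawley females and 0.39 in Long Evans females. After postnatal 750 ppm, Fkbp5 was 0.26 in Long Evans males and -0.30 in Fischer males.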

How the results depend on the processing

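Under the alternatives run, no called difference of a single gene reversed its direction, although Pdk4 between strains turned among upper label numbers, as given with it. Over the alternatives other than leaving out animals, 213 of 222 values of called single genes stayed called, and the 9 that lost their call are given with their results; calls gained are in the counts. Counts of called genes among the 8 moved as follows. In the Fischer dose comparison 1 gene was called, against 2 with array weights, quantile normalization, 1 fit of all groups or the 40th percentile filter, and 3 with the block. Among Long Evans exposed groups it was 1, against 2 with array weights or the filter and 0 when leaving out the arrays against their sex label, and by period and dose 0, against 1 with array weights, 1 fit or the filter. In the Fischer sex comparison it was 1, against 2 with array weights, quantile normalization or the block and 3 with 1 fit, and over all strains 1, against 2 with the block or once the arrays against their sex label were left out. The strain tests of the dose difference called 3 genes, against 1 with the choroid plexus covariate and 5 with the block, and those of the sex difference 0, against 1 with the block. The cause of these moves was not tested. Leaving out 1 animal gave 1 to 2 calls for the Fischer dose, 0 to 2 for Long Evans groups, 0 to 1 for Long Evans by period and dose, 1 to 2 for the Fischer sex difference and 1 to 2 over all strains. It gave 3 to 3, 1 to 3 and 3 to 5 in controls for Sprague Dawley against Long Evans, Sprague Dawley against Fischer and Long Evans against Fischer, and 3 to 3, 4 to 5 and 5 to 7 over all treatments. For the strain tests of the dose difference it gave 1 to 5, where 43 animals lowered the count to 1, and for those of the sex difference 0 to 1. Of 24 likenesses, 11 moved when label sets were left in, among them Fkbp5 with Slc19a3, at 0.0303. Animals at the same place in their group's run of 4 label numbers deviated together from their group means, most of all in Fischer. Pairs with r over 0.1 numbered 84 of 171 in Sprague Dawley, 70 of 180 in Long Evans and 173 of 180 in Fischer. The median r in Fischer was 0.375 at the same place and -0.279 at other places. It was 0.0885 and -0.034 in Sprague Dawley and 0.0664 and -0.0187 in Long Evans. The main fits did not use the numbers to pair the animals. In Fischer the shared deviation by place thus stayed in the spread of these fits. A block over the 4 places, added after the data were seen, moved the counts as the upper and lower block did, to 3 for the Fischer dose, 2 for the Fischer sex difference, 2 over all strains, and 5 and 1 for the strain tests of the dose and sex differences, and lost no single-gene call. The deposited values carry no measure of background, so the limit that low signal sets could not be read.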
